A study of Mus musculus with 12 samples.

Results

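The transcripts described here belong to the unfolded protein response and the amino acid response, 33 genes taken as a fixed list and found on the array by the gene symbol of each probe set, a group of probes that reads 1 transcript. Of the 33 genes, 31 were measured, among 19505 genes in all. Of the 33, 17 were listed as driven by the transcription factor ATF4, with Atf4 itself among them, and all 17 were measured. This grouping was not tested here. The other 16 act in or for the endoplasmic reticulum, and 14 of them were measured. Manf and Pdia4 were not analysed here. Where a gene had more than 1 probe set, as Ddit3 did, the one with the highest mean stood for it.

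The cells were cardiac fibroblasts from the hearts of wildtype C57BL/6J mice aged 1 to 7 days, kept in culture for 10 to 14 days, by which time they had become myofibroblasts, the contractile form of the fibroblast that lays down matrix. The cultures received 40 nM sCD74 (the soluble form of CD74, a receptor for MIF) together with 8 nM MIF (macrophage migration inhibitory factor, a cytokine), 8 nM MIF alone, 40 nM sCD74 alone, or carrier, each for 8 h. Each of the 4 groups had 3 arrays, so that 12 whole-transcript microarrays were read, and no group carried a mutation or a transgene. Within each replicate number the 4 titles, 1 per group, carry the same code, whose meaning is not stated. Since the labels do not say whether replicates are separate isolations, the p-values cover the scatter among these arrays and nothing beyond it.

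ATF4 is translated when kinases phosphorylate the initiation factor eIF2, which happens when the endoplasmic reticulum fills with unfolded protein and also when amino acids run short. It switches on genes that make and import amino acids, among them those of serine synthesis and of mitochondrial one-carbon metabolism. The other branches of the response run through the sensors ATF6 and IRE1 (the product of Ern1), the second of which splices the Xbp1 transcript, and they raise chaperones, folding enzymes and the machinery that removes misfolded proteins. Fibroblasts that secrete much collagen rely on both sets, since serine is a source of glycine for collagen and procollagen folds in the endoplasmic reticulum.

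Levels are log2 values as the authors deposited them, and the size of a difference as a fold depends on that scale, which may have been stretched. Because probe sets differ in how strongly they bind, levels were compared between arrays of 1 gene and never between genes. The median value per array lay between 8.01 and 8.14. The probe sets named as negative controls had a median of 7.53 averaged over the arrays. A gene below that level could not be told from background. Chac1, Sesn2 and Ppp1r15a averaged below it, and no size is given for differences in them. The gap between positive and negative controls was narrowest in sCD74 replicate 3, at 3.67, and in carrier replicate 1, at 3.77, and reached 4.25 in carrier replicate 2. Markers of the labelled cell type were detected: 0 of 9 fibroblast markers and 0 of 5 myofibroblast markers averaged below the negative controls. A level above background does not by itself identify the cell type. The cultures also carried transcripts of other cells, since 0 of 15 macrophage markers and 1 of 10 endothelial markers averaged below that level, against 4 of 11 cardiomyocyte markers. In such bulk samples, fewer cells of a type and less RNA per cell cannot be told apart.

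To show where the members differ in their regulatory sequence, the 250 bases before the start of each gene were taken from RefSeq (build GRCm38.p6), which held 28 of the 33 members, 15 driven by ATF4 and 13 of the endoplasmic reticulum. The core of the C/EBP-ATF element, spelled TGATGNAA and searched on both strands, is the kind of site that ATF4 binds with a C/EBP partner. It stood in 4 of 15 ATF4-driven genes (Atf3, Chac1, Asns and Slc7a11) and in 1 of 13 endoplasmic reticulum genes (Herpud1), against 3.91% of 27025 genes with a promoter. The stretches are printed 5′ to 3′ on the strand of the gene, with the element in capitals, which reads as its reverse complement where it lies on the opposite strand. In Asns the element ended 16 bases before the start, and in Slc7a11 there were 2 copies facing each other. Asns lies on the minus strand at chr6:7693210-7693459, Slc7a11 on the minus strand at chr3:50443633-50443699, Atf3 on the minus strand at chr1:191183416-191183463 and Chac1 on the plus strand at chr2:119351029-119351076.
Asns: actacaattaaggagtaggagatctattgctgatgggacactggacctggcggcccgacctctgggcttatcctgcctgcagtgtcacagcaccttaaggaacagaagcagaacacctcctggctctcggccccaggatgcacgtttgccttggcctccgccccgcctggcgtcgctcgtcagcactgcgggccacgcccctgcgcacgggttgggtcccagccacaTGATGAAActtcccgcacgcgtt
Slc7a11: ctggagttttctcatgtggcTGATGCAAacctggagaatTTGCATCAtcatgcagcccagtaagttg
Atf3: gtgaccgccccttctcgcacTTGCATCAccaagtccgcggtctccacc
Chac1: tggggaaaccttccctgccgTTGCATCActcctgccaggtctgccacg

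The endoplasmic reticulum stress element (ERSE), which ATF6 binds together with the factor NF-Y, was searched on both strands as CCAAT, any 9 bases, then CCACG. It stood in 6 of 13 endoplasmic reticulum genes (Hspa5, Hsp90b1, Creld2, Pdia6, Calr and Canx) and in 0 of 15 ATF4-driven genes, against 0.13% of all genes with a promoter. Its relative ERSE-II (ATTGG, any 1 base, then CCACG) was found in Herpud1 alone among the members, against 0.037% of all genes with a promoter. The letters TGACGTGG, a site for XBP1 and ATF6, were in no member's window, against 0.603% of all genes with a promoter. Hspa5 and Hsp90b1, major chaperones of the organelle, are shown with the element in capitals, and Herpud1 with both the C/EBP-ATF core and ERSE-II in capitals, since it alone held a motif of each kind. Hspa5 lies on the plus strand at chr2:34771840-34772089, Hsp90b1 on the minus strand at chr10:86705513-86705676 and Herpud1 on the plus strand at chr8:94386297-94386407.
Hspa5: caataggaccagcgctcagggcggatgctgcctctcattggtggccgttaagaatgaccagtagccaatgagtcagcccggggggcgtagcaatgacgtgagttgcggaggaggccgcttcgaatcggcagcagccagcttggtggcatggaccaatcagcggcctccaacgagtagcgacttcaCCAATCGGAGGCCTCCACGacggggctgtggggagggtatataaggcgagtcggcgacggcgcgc
Hsp90b1: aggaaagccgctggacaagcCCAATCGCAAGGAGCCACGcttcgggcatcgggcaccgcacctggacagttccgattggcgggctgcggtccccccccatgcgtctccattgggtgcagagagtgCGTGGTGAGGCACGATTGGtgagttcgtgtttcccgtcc
Herpud1: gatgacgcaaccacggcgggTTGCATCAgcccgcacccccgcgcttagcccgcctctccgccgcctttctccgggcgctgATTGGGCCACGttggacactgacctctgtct

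The ATF4-driven genes varied more from array to array than the endoplasmic reticulum genes. The distance between the lowest and the highest of the 12 arrays had a median of 0.85 over the 17 ATF4-driven genes, with Slc3a2 (the heavy chain of amino acid exchangers) at 0.34 and Aldh1l2 (a mitochondrial one-carbon enzyme) at 1.50. Over the 14 endoplasmic reticulum genes the median distance was 0.34, with Herpud1 (which helps clear misfolded proteins) at 0.27 and Sdf2l1 (a chaperone partner) at 1.27. All 19505 genes had a median of 0.69, and those above the negative controls 0.66. These sets of genes were not matched for signal. Of the ATF4-driven genes 3 averaged below the negative controls, and of the endoplasmic reticulum genes 0 did. The part of signal level in the spread was not tested. The chaperones Hspa5 (BiP), Hsp90b1 (GRP94) and Calr (calreticulin) ran from 16.65 to 17.11, from 16.37 to 16.72 and from 16.79 to 17.06. Canx (calnexin), a lectin that holds glycoproteins until they fold, ran from 15.58 to 15.88, and Hyou1, a nucleotide exchange factor for BiP, from 13.53 to 13.97. The stress sensor Atf6 ran from 13.26 to 13.53, and Xbp1 (whose splicing these probe sets do not tell) from 14.63 to 14.96. Trib3 ran from 9.95 to 10.70. Chac1 (which degrades glutathione), Sesn2 (which restrains mTORC1 when leucine is short) and Ppp1r15a (the phosphatase subunit GADD34, which acts on eIF2) lay below the negative control median of the array on 5, 11 and 12 of 12 arrays. The heat map of members by array shows that much of the excess in ATF4-driven genes stood in the treated arrays of replicate number 1.

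**Figure D1:**
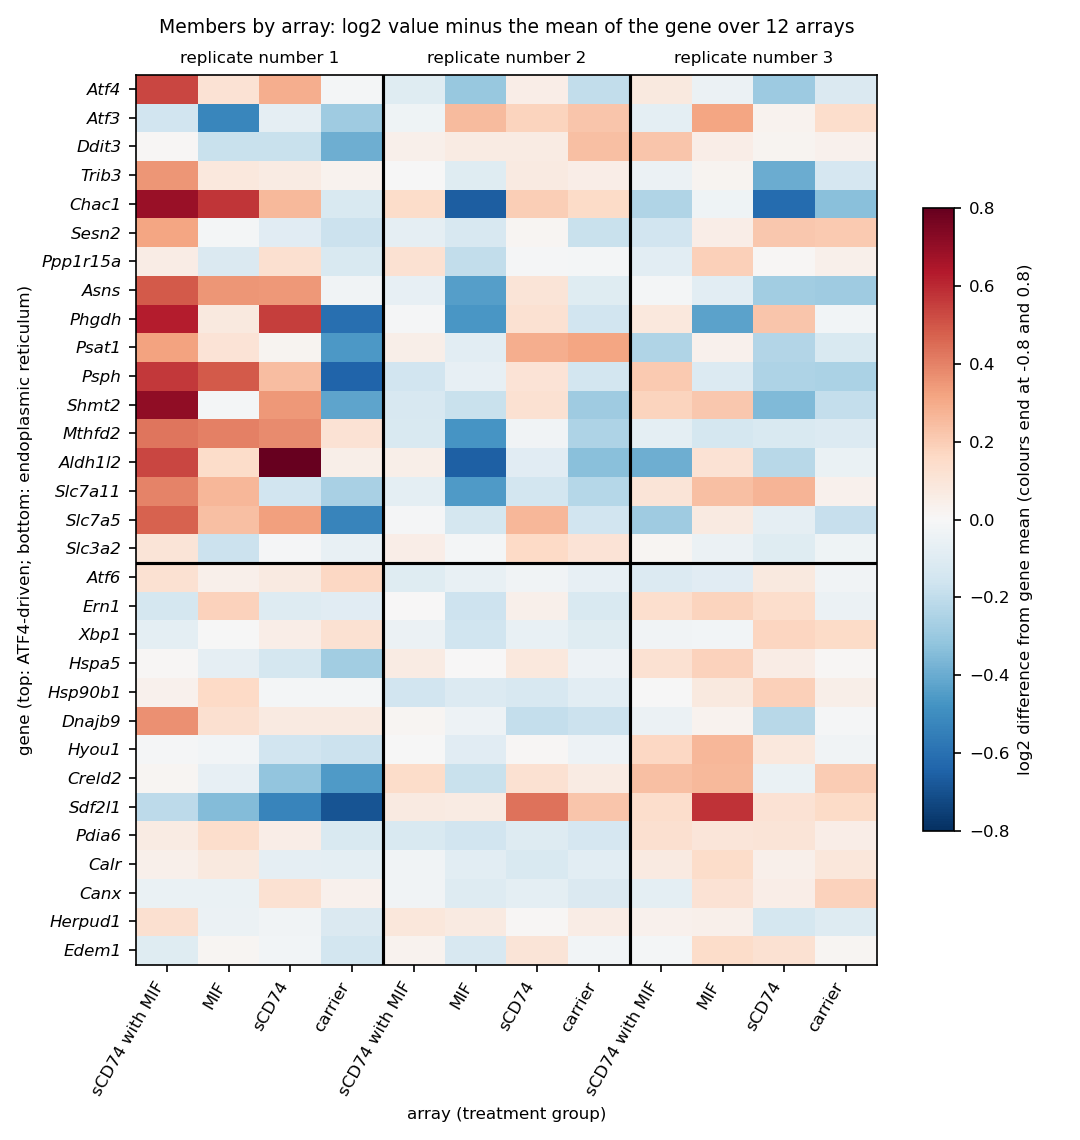
Each cell is the log2 value of a member (down the page) on an array (across, by replicate number and treatment group) minus that member's mean over the 12 arrays, with red above and blue below the mean and colours ending at -0.8 and 0.8. The ATF4-driven genes, above the black line, span a median of 0.85 from lowest to highest array, and the endoplasmic reticulum genes, below it, 0.34.

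With sCD74 and MIF together, the genes of serine synthesis and one-carbon metabolism had higher means than with carrier, but no member passed the test. All 7 amino acid and one-carbon enzymes and all 3 transporters had positive differences from carrier, with medians of +0.27 and +0.29. Over the 17 ATF4-driven genes the median difference was +0.18, over the 14 endoplasmic reticulum genes +0.09 and over all genes +0.0014. Without the array of number 1 with both proteins, the median of the ATF4-driven genes was +0.05, and without all arrays of number 1 it was +0.02. Without carrier replicate 1, the median of the endoplasmic reticulum genes was +0.02. The test was limma's moderated test across all 19505 genes, two-sided, with Benjamini-Hochberg adjustment and a threshold of 0.05, and errors of differences are its standard errors. In contrasts between treatments it left the replicate number out of the fit. It called 0 of 31 members and 0% of all genes. At an unadjusted p under 0.05 there were 3 of 31 members (Shmt2, Psph and Phgdh), beside 780 genes or 4.0% of all genes.

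Shmt2, the mitochondrial enzyme that turns serine into glycine, read 11.24, 10.40 and 10.71 in sCD74 with MIF, against 10.11, 10.25 and 10.34 with carrier, in the order of replicate numbers 1, 2 and 3. All 3 co-treated arrays lay above all 3 carrier arrays, with a difference of +0.55 ± 0.22 (SE, n = 3 each, limma adjusted p = 0.999). Psph, which completes serine synthesis, read 10.96, 10.25 and 10.61 with both proteins, against 9.76, 10.26 and 10.15 with carrier. Here the groups overlapped, because replicate 2 read 10.25 with both proteins and 10.26 with carrier, and the difference was +0.55 ± 0.22 (SE, n = 3 each, limma adjusted p = 0.999). Among the chaperones, Hspa5 read 16.93, 16.99 and 17.05 with both proteins, against 16.65, 16.89 and 16.94 with carrier, a difference of +0.17 ± 0.13. Herpud1 read 13.39, 13.35 and 13.30 with both proteins, against 13.15, 13.32 and 13.16 with carrier, a difference of +0.14 ± 0.11. Hspa5 overlapped between the groups in 1 co-treated array, and Herpud1 in 1 carrier array, and both had an adjusted p of 0.999 by limma. Atf4 itself read 15.09, 14.46 and 14.63 with both proteins, against 14.53, 14.35 and 14.44 with carrier (+0.28 ± 0.19, limma adjusted p = 0.999). In the same comparison, 5 of 5 myofibroblast markers had positive differences (median +0.37) and 11 of 15 macrophage markers negative ones (median -0.12). None of either list passed the test, and their part in the result was not tested.

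With MIF alone the medians of both groups of members lay near 0. The median difference was +0.02 over the ATF4-driven genes and +0.07 over the endoplasmic reticulum genes, beside +0.01 over all genes. Without MIF replicate 2 they were +0.16 and +0.14, and without all arrays of number 1 they were -0.05 and +0.02. Limma called 0 of 31 members and 0% of all genes, and at an unadjusted p under 0.05 there were 0 members and 3.35% of all genes, that is 653. The member with the smallest p was Psph, which read 10.89, 10.33 and 10.29 with MIF, against 9.76, 10.26 and 10.15 with carrier. Every MIF array lay above every carrier array, at +0.45 ± 0.22 (limma adjusted p = 1). Next came Slc7a5, the light chain of the leucine transporter LAT1, which read 13.53, 13.14 and 13.36 with MIF, against 12.76, 13.13 and 13.10 with carrier. Its groups did not overlap either, with a difference of +0.35 ± 0.20 (limma adjusted p = 1). On the endoplasmic reticulum side the sensor gene Ern1 read 11.12, 10.77 and 11.12 with MIF, against 10.85, 10.82 and 10.90 with carrier (+0.15 ± 0.13), and Hspa5 read 16.85, 16.93 and 17.11 with MIF (+0.14 ± 0.13). Both overlapped with carrier and had an adjusted p of 1 by limma. In the same contrast 13 of 15 macrophage markers had negative differences (median -0.19) and 0 passed, and their part was not tested.

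With sCD74 alone the 7 enzymes had positive differences from the same carrier arrays (median +0.29). The chaperones lay near 0 (median +0.03 over 9 genes, 5 of them positive). The medians were +0.13 over the ATF4-driven genes and +0.03 over the endoplasmic reticulum genes, and 0.00 over all genes. That of the ATF4-driven genes was +0.08 without sCD74 replicate 1, +0.25 without sCD74 replicate 3 and +0.04 without all arrays of number 1. Taken within each replicate number, it was +0.31 in number 1, +0.20 in number 2 and -0.03 in number 3. Limma called 0 of 31 members and 0% of all genes. At an unadjusted p under 0.05 there were 2 of 31 members, Phgdh and Slc7a5, beside 350 genes or 1.79% of all genes. Slc7a5 read 13.61, 13.55 and 13.21 with sCD74, against 12.76, 13.13 and 13.10 with carrier, with no overlap and a difference of +0.46 ± 0.20 (limma adjusted p = 1). Edem1, which sends misfolded glycoproteins to degradation, read 13.29, 13.41 and 13.43 with sCD74, against 13.17, 13.29 and 13.33 with carrier (+0.12 ± 0.12), and Ern1 read 10.83, 10.98 and 11.08 with sCD74 (+0.11 ± 0.13). Both overlapped with carrier and had an adjusted p of 1 by limma. Macrophage markers had negative differences in 13 of 15 (median -0.27), fibroblast markers positive ones in 7 of 9 (+0.13) and myofibroblast markers in 4 of 5 (+0.13), with 0 passing, and their part was not tested.

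Phgdh, which catalyses the committed step of serine synthesis, was high in both groups that received sCD74. It read 10.71, 10.07 and 10.16 in sCD74 with MIF, 10.16, 9.61 and 9.65 in MIF, 10.63, 10.20 and 10.30 in sCD74, and 9.48, 9.92 and 10.06 in carrier. In each replicate number the arrays with sCD74 lay above the arrays without it. The means were 10.31 ± 0.35 (SD, n = 3) with both proteins, 9.81 ± 0.30 with MIF, 10.38 ± 0.23 with sCD74 and 9.82 ± 0.31 with carrier. Taken over both backgrounds, cultures with sCD74 exceeded cultures without it by +0.53 ± 0.15, with an unadjusted p of 0.00463 from limma that became 1 after adjustment over all genes. This contrast held 457 genes or 2.34% at an unadjusted p under 0.05 and called 0% of genes, and Phgdh was the only member under that limit. Shmt2 had the next smallest p (+0.29 ± 0.15), and among the endoplasmic reticulum genes Hspa5 (+0.06 ± 0.09) and Edem1 (+0.04 ± 0.08) had the smallest, all with an adjusted p of 1 by limma.

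Cultures with MIF against those without it had a median difference of +0.07 over the ATF4-driven genes and +0.07 over the endoplasmic reticulum genes. The smallest p-values belonged to Psph (+0.31 ± 0.16) and Shmt2 (+0.26 ± 0.15), and among the endoplasmic reticulum genes to Dnajb9 (a BiP co-chaperone, +0.15 ± 0.10) and Herpud1 (+0.11 ± 0.08). None had an adjusted p below 1 by limma, 0% of genes were called, and 841 genes or 4.31% had an unadjusted p under 0.05. Against MIF alone, the addition of sCD74 gave Phgdh a difference of +0.50 ± 0.22 and Atf4 +0.25 ± 0.19, and on the endoplasmic reticulum side Creld2 +0.13 ± 0.19 and Hsp90b1 -0.08 ± 0.13. Against sCD74 alone, the addition of MIF gave Trib3 (a pseudokinase that ATF4 induces) +0.19 ± 0.16, Shmt2 +0.22 ± 0.22, Dnajb9 +0.22 ± 0.14 and Herpud1 +0.14 ± 0.11. The interaction, the departure of the joint response from the sum of the single ones, was -0.46 ± 0.28 for Slc7a5, -0.28 ± 0.31 for Psph, -0.17 ± 0.19 for Ern1 and -0.16 ± 0.17 for Edem1. In these 3 contrasts limma called 0 of 31 members and 0% of genes, every adjusted p named here was 1, and 465, 520 and 363 genes had an unadjusted p under 0.05, in the order given. The contrasts with carrier share the 3 carrier arrays, so their members are given side by side and not counted together. The share of all genes without overlap between a treated group and carrier is not given here. Separations named in those contrasts are therefore descriptions only.

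**Figure D2:**
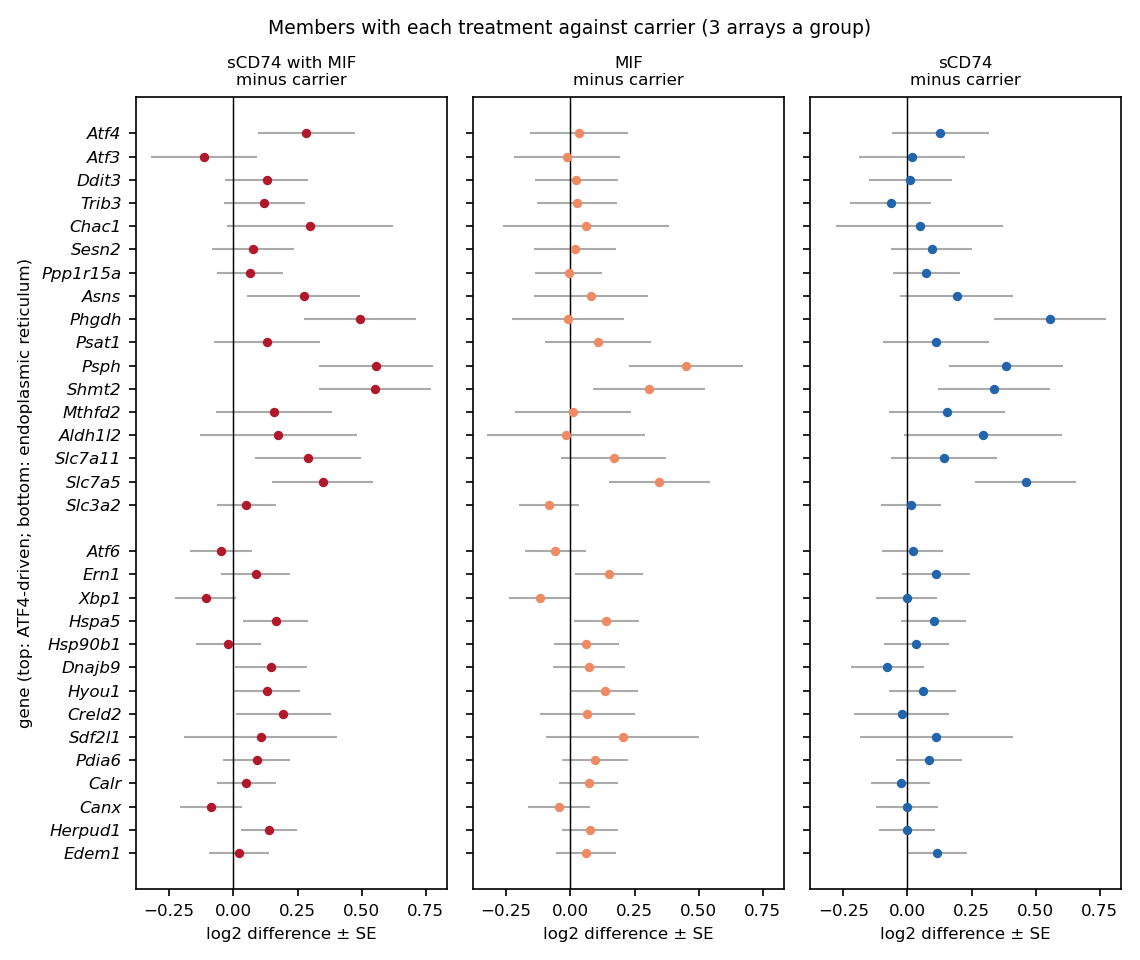
Log2 difference from carrier for each member (down the page) with sCD74 and MIF (left), MIF (middle) and sCD74 (right), with bars of 1 standard error from limma and 3 arrays a group. Shmt2 and Psph with both proteins, at +0.55 each, and Phgdh with sCD74, at +0.56, lie farthest to the right, and the endoplasmic reticulum genes lie nearer 0.

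The differences from carrier were uneven over the replicate numbers. In number 1, all 3 treated arrays lay above the carrier array in 15 of 17 ATF4-driven genes, the exceptions being Atf3 (a stress-induced repressor) and Slc3a2, against 30.8% of all genes. In number 2 this was so in 3 of 17 (22.1% of all genes), and in number 3 in 3 of 17 (23.5% of all genes). The mean of the 3 treated arrays minus carrier had a median over the ATF4-driven genes of +0.43 in number 1, against -0.0001 in number 2 and -0.0024 in number 3. Without the 3 genes below the negative controls, it was 12 of 14 in number 1, against 38.6% of the 11290 genes above them. The endoplasmic reticulum genes had all 3 treated arrays above carrier in 8 of 14 in number 1, against 2 of 14 in number 2 and 4 of 14 in number 3, with medians of +0.11, +0.01 and +0.05. Over the 11290 genes above the negative controls, the shares were 38.6%, 22.4% and 21.3%, with medians of +0.06, -0.0055 and -0.0051, in the same order. When quantile normalization was applied once more, number 1 had 13 of 17 ATF4-driven genes (median +0.35) and 4 of 14 endoplasmic reticulum genes (median +0.05), against 29.4% of all genes.

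Among the members, Psph, Phgdh and Slc7a5 had the largest mean excess of treated arrays over carrier in replicate number 1. Psph exceeded the carrier array of number 1 by 1.21 with both proteins, 1.13 with MIF and 0.89 with sCD74, and Phgdh by 1.23, 0.68 and 1.15. Slc7a5 exceeded it by 1.00, 0.77 and 0.86 in the same order of groups, and Psat1, the middle enzyme of serine synthesis, by 0.78, 0.57 and 0.48. In number 2 the 3 treated arrays of Psat1 lay below carrier instead, at -0.27, -0.40 and -0.03 relative to it. Asns (asparagine synthetase) exceeded carrier by 0.52, 0.39 and 0.37 in number 1, and the mean over the treated arrays was -0.04 in number 2 and +0.16 in number 3. Hspa5 was the only member above its own carrier in 9 of 9 treated arrays, by 0.04 to 0.28 with both proteins, MIF or sCD74, a pattern that 1.76% of all genes had.

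**Figure D3:**
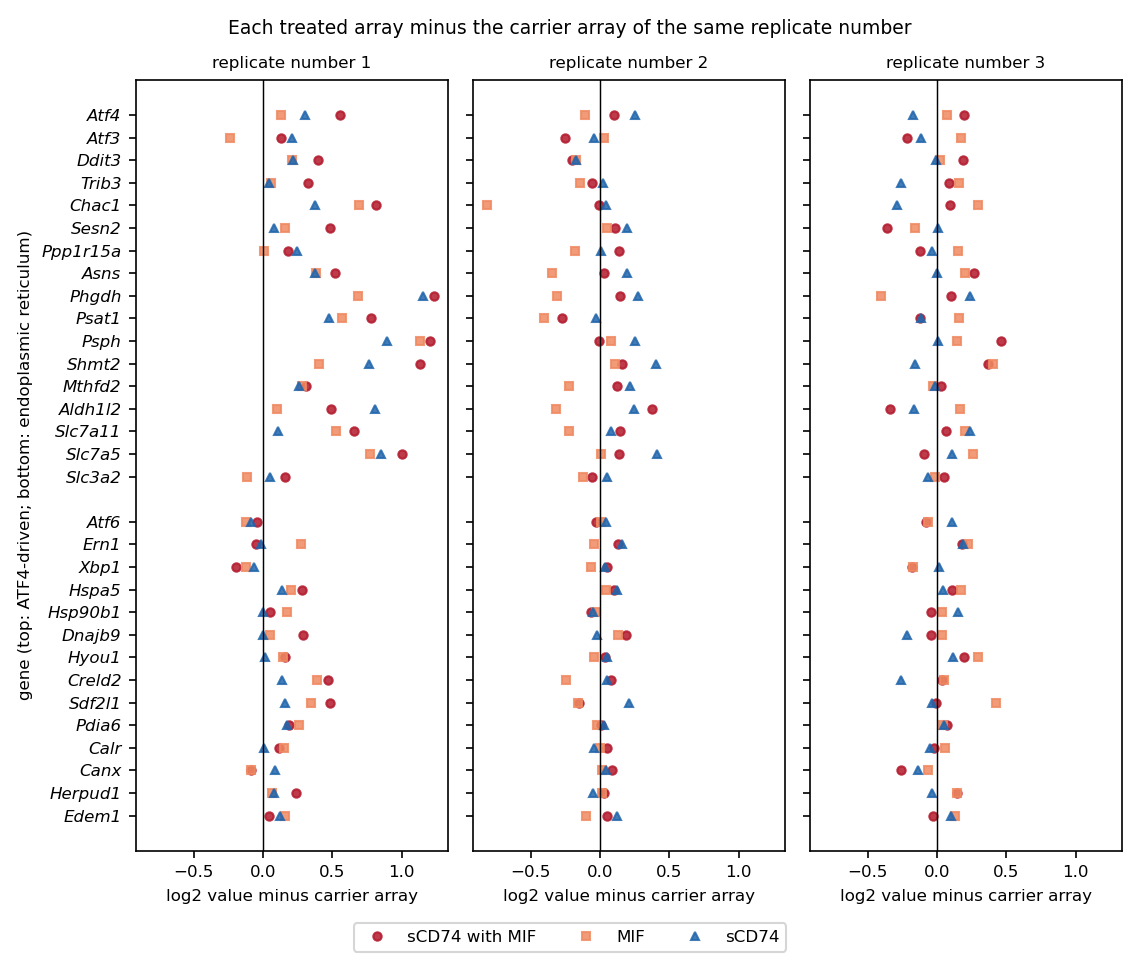
Log2 value of each treated array minus the carrier array of the same replicate number, for each member (down the page) in replicate numbers 1, 2 and 3 (panels), with circles for sCD74 with MIF, squares for MIF and triangles for sCD74. In number 1 the ATF4-driven genes lie to the right of 0 in all 3 treated arrays for 15 of 17 genes, against 3 of 17 in each of the other numbers.

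The test of that unevenness compared treated minus carrier in replicate number 1 with the same in numbers 2 and 3, taking the 3 treatments as 1 class, and was chosen after the pattern was seen. Limma called 0 of 31 members and 0% of all genes, with 1622 genes or 8.32% at an unadjusted p under 0.05. The members under that limit were Phgdh (+1.02 ± 0.36, adjusted p = 0.508), Psph (+0.92 ± 0.25, 0.429), Psat1 (+0.74 ± 0.24, 0.467) and Slc7a5 (+0.74 ± 0.24, 0.472). All differences in number 1 rest on 1 carrier array, the one whose gap between positive and negative controls was 3.77. Other lists moved with it. All 3 treated arrays of number 1 lay above carrier in 5 of 5 myofibroblast markers, whose mean level was 14.08 with both proteins, 13.54 with MIF and 13.91 with sCD74, against 13.34 with carrier. They lay below carrier in 12 of 15 macrophage markers, whose mean level was 12.44, 12.42 and 12.23 in the treated groups in that order, against 12.61 with carrier. Their part in the result was not tested.

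Across treatments, the 4 arrays of replicate number 1 had more of the transcripts for Atf4, Asns, Mthfd2 and Aldh1l2, and less of Atf3 and Sdf2l1, than the 8 arrays of numbers 2 and 3. Limma, with treatment in the fit, called 6 of 31 members, a share near that of all genes, of which 3204 or 16.4% were called. Of the ATF4-driven genes, 4 of 17 were higher and 1 was lower. Of the endoplasmic reticulum genes, 0 of 14 were higher and 1 was lower. Among all genes, 7.03% were higher and 9.39% lower. The median difference was +0.20 over the ATF4-driven genes, -0.02 over the endoplasmic reticulum genes and +0.02 over all genes. Over the ATF4-driven genes it was +0.08 without the array of number 1 with both proteins and +0.37 without its carrier array. Taken within each treatment group, it was +0.53 with both proteins, +0.28 with MIF and +0.23 with sCD74, but -0.16 with carrier.

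Mthfd2, the mitochondrial one-carbon enzyme next after Shmt2, read 12.48, 12.45, 12.43 and 12.17 in number 1 (sCD74 with MIF, MIF, sCD74 and carrier), against 11.93, 11.58, 12.02 and 11.80 in number 2 and 11.97, 11.91, 11.93 and 11.94 in number 3. Every array of number 1, carrier included, lay above the other 8, and the difference was +0.50 ± 0.09 (SE, limma adjusted p = 0.00311). Aldh1l2, which works in the same pathway, read 11.12, 10.73, 11.44 and 10.63 in number 1, against 10.63, 9.93, 10.49 and 10.25 in number 2 and 10.19, 10.70, 10.37 and 10.53 in number 3, in the same order of groups. The arrays overlapped, since the carrier array of number 1 lay below the MIF array of number 3, and the difference was +0.59 ± 0.16 (adjusted p = 0.0236).

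Asns read 15.40, 15.26, 15.25 and 14.88 in number 1, against 14.84, 14.47, 15.01 and 14.81 in number 2 and 14.89, 14.82, 14.63 and 14.62 in number 3. The 3 treated arrays of number 1 were the highest of all 12 and its carrier array lay among the others, with a difference of +0.44 ± 0.11 (limma adjusted p = 0.0192). Atf4 read 15.09, 14.67, 14.84 and 14.53 in number 1, against 14.46, 14.25, 14.61 and 14.35 in number 2 and 14.63, 14.51, 14.26 and 14.44 in number 3. Again the 3 treated arrays of number 1 were the highest and the carrier array overlapped, with a difference of +0.35 ± 0.10 (adjusted p = 0.0385). Atf3 went the other way, with 10.51, 10.14, 10.59 and 10.38 in number 1, against 10.63, 10.91, 10.84 and 10.88 in number 2 and 10.58, 10.97, 10.68 and 10.80 in number 3. Only the sCD74 array of number 1 reached the other 8, and the difference was -0.38 ± 0.11 (adjusted p = 0.0326).

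Sdf2l1, which forms a complex with the BiP co-chaperone machinery, read 10.63, 10.49, 10.31 and 10.15 in number 1, against 10.91, 10.90, 11.27 and 11.06 in number 2 and 10.98, 11.41, 10.95 and 10.99 in number 3. All 4 arrays of number 1 lay below the other 8, with the carrier array lowest, and the difference was -0.67 ± 0.12 (limma adjusted p = 0.00264). Ddit3 (the pro-apoptotic factor CHOP) also lay below the other 8 in all 4 arrays of number 1, and Dnajb9 above them, without passing the test (-0.28 ± 0.09, adjusted p = 0.0590, and +0.24 ± 0.08, adjusted p = 0.0691). The second probe set of Ddit3 averaged 10.11 in number 1, against 10.21 in number 2 and 10.11 in number 3, so the probe sets of this gene disagreed. In all, 4 of 31 members had no overlap between number 1 and the other 8 arrays, against 9.81% of all genes. Creld2 (-0.30 ± 0.11) and Hspa5 (-0.18 ± 0.08) lay lower in number 1 without passing the test (adjusted p = 0.0717 and 0.145).

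**Figure D4:**
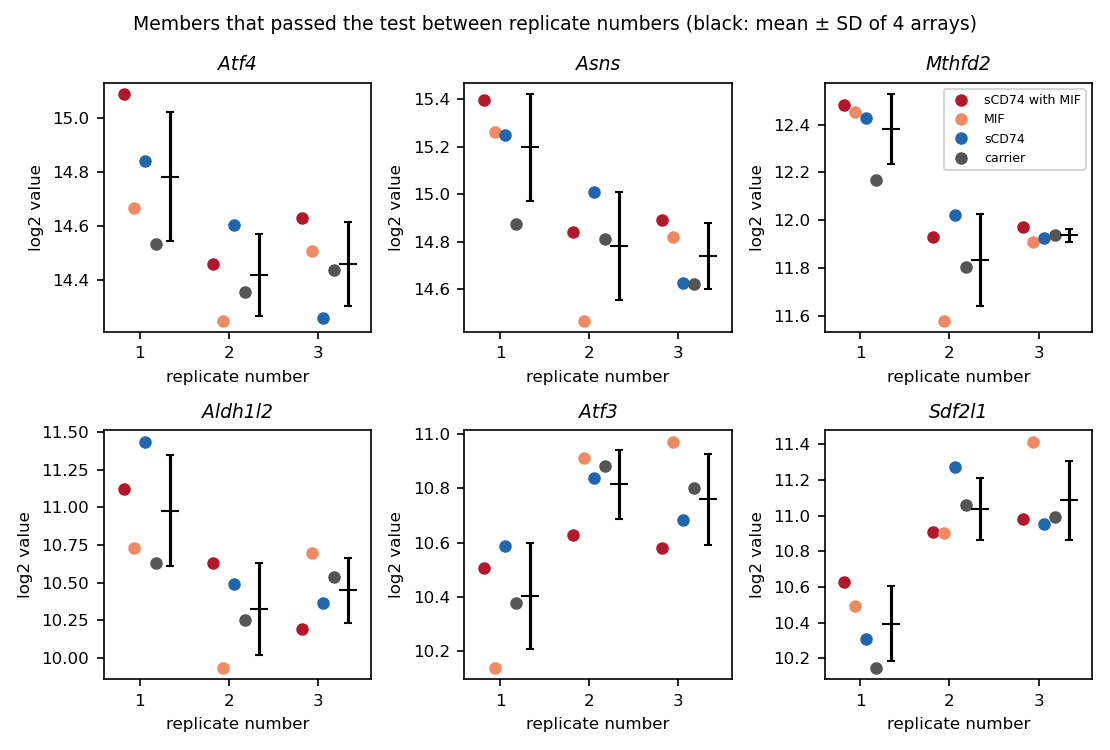
Log2 values of the 6 members that passed the test between replicate number 1 and numbers 2 and 3, by replicate number, with a point for each array coloured by treatment group and black bars for the mean ± SD of 4 arrays. Mthfd2 lies above and Sdf2l1 below all other arrays in number 1, while the carrier array of Atf4 and Asns in number 1 lies among the arrays of the other numbers.

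The calls did not rest equally on all arrays. Mthfd2 and Sdf2l1 passed in all 18 alternatives, while Aldh1l2 passed in 16, Asns in 15, Atf4 in 10 and Atf3 in 10. Asns was lost without any of the 3 treated arrays of number 1 (largest limma adjusted p = 0.0841), and Aldh1l2 without its sCD74 array (0.125) or its array with both proteins. Atf4 was lost without any of 8 arrays (largest 0.159, without the array of number 1 with both proteins), and Atf3 without any of 7 (largest 0.147, without the MIF array of number 1). Without the array of number 1 from sCD74 with MIF, from MIF or from sCD74, 3 members passed each time, and without the carrier array of number 1, 8 did. Marker lists of other cell types also differed between the replicate numbers. All 15 of 15 macrophage markers were lower in number 1 (median -1.02), with mean levels per array of 12.23 to 12.61 in number 1, against 13.44 to 13.74 in number 2 and 12.96 to 13.36 in number 3. Endothelial markers were higher in 6 of 10 and lower in 1 (median +1.09), with 11.06 to 11.13 in number 1, against 9.56 to 9.69 in number 2 and 10.02 to 10.36 in number 3. Also higher were 5 of 11 cardiomyocyte markers (median +0.37), 3 of 5 myofibroblast markers (+0.38) and 3 of 7 markers of smooth muscle and pericytes (+0.17), against 0 of 9 fibroblast markers. Cardiomyocyte markers had mean levels per array of 9.35 to 9.55 in number 1, against 9.54 to 9.65 in number 2 and 7.94 to 7.98 in number 3. As a list they were thus higher in number 1 than in number 3 but not than in number 2. The part of these marker lists in the differences of the members was not tested.

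**Figure D5:**
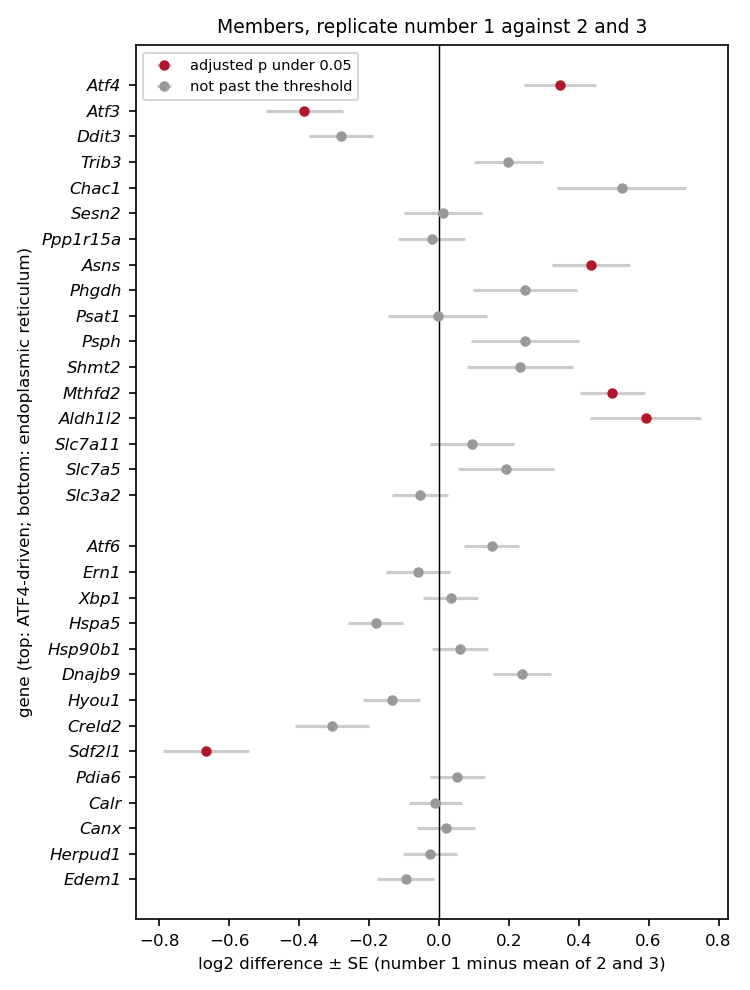
Log2 difference between replicate number 1 and the mean of numbers 2 and 3 for each member (down the page), with bars of 1 standard error from limma. Red points passed the adjusted threshold of 0.05, with Aldh1l2 farthest right at +0.59 and Sdf2l1 farthest left at -0.67.

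Fewer genes were called between replicate numbers 3 and 2. Limma called 0 of 31 members, against 224 genes or 1.15% of all genes, and 2 members had an unadjusted p under 0.05, against 2771 genes in all. One was Slc7a11, the cystine importer, which read 9.41, 9.54, 9.58 and 9.34 in number 3 (sCD74 with MIF, MIF, sCD74 and carrier), against 9.23, 8.85, 9.16 and 9.08 in number 2. All 4 arrays of number 3 lay above those of number 2, by +0.39 ± 0.14 (adjusted p = 0.217). The other was Pdia6, a disulfide isomerase, which read 15.52, 15.49, 15.49 and 15.44 in number 3, against 15.27, 15.24, 15.29 and 15.26 in number 2, again without overlap (+0.22 ± 0.09, limma adjusted p = 0.279). Hsp90b1 read 16.52, 16.60, 16.72 and 16.57 in number 3, against 16.37, 16.41, 16.39 and 16.44 in number 2, without overlap (+0.20 ± 0.09, adjusted p = 0.362). The share of all genes without overlap between these numbers is not given here, so these separations are descriptions only. Psat1 was lower on average in number 3 (-0.28 ± 0.16, adjusted p = 0.480). All 9 chaperones and folding enzymes had positive differences, from +0.03 for Dnajb9 to +0.22 for Pdia6, with a median of +0.15, beside -0.02 over the ATF4-driven genes and -0.01 over all genes. Cardiomyocyte markers were lower in number 3 in 7 of 11 (median -1.46), with mean levels per array of 7.94 to 7.98 in number 3, against 9.54 to 9.65 in number 2. Macrophage markers had negative differences in 15 of 15 (median -0.44), of which 2 passed, and endothelial markers were higher in 4 of 10 (median +0.41). Their part was not tested.

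Further genes of the same pathways were read from lists. In the comparison of number 1 with numbers 2 and 3, 6 of 28 further ATF4 pathway genes were higher and 3 were lower, where 7.03% of all genes were higher and 9.39% lower. Cth, which makes cysteine from cystathionine, was higher by +0.85 ± 0.14 (limma adjusted p = 0.00148), and the arginine transporter Slc7a1 by +0.64 ± 0.11 (0.00216), while Slc7a3, of the same family, passed but lay below the negative controls in number 3. Eif2ak4 (the amino acid sensor GCN2) differed by -0.49 ± 0.09, the aspartate aminotransferase Got1 by -0.49 ± 0.11 and the glutamine transporter Slc1a5 by -0.38 ± 0.08. Of 11 aminoacyl-tRNA synthetases, which charge tRNAs with amino acids, 4 were higher and 0 lower, among them Tars (+0.43 ± 0.09), Iars (+0.41 ± 0.08) and Cars (+0.40 ± 0.09). Of the 28 further ATF4 pathway genes 2 averaged below the negative controls, and of the 11 synthetases 0 did. When only genes above those controls were tested, 32.1% of 11290 genes were called. The shares over all genes are therefore no matched background for these lists. Of 40 further endoplasmic reticulum genes, 4 were higher, among them Creb3l1 (a factor for collagen secretion, +0.91 ± 0.13), the translocon part Sec63 (+0.47 ± 0.09) and the oxidase Ero1a (+0.38 ± 0.09), and 3 were lower, a share of calls near the 16.4% of all genes. The lower ones were Fkbp2 (-0.60 ± 0.11), Edem2 (-0.51 ± 0.11) and Sel1l (-0.27 ± 0.08).

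In each of the 3 contrasts with carrier, 0 of 28, 0 of 11 and 0 of 40 genes of these lists passed limma's test. With both proteins the medians were +0.20 over the further ATF4 pathway genes, +0.16 over the synthetases and +0.09 over the further endoplasmic reticulum genes, with MIF +0.10, +0.12 and +0.08, and with sCD74 +0.11, +0.16 and +0.05. In replicate number 1, all 3 treated arrays lay above carrier in 11 of 11 synthetases (median +0.34), 18 of 28 further ATF4 pathway genes (+0.31) and 29 of 40 further endoplasmic reticulum genes (+0.20), against 30.8% of all genes and 38.6% of those above the negative controls. In number 2 this was so in 3 of 11, 10 of 28 and 13 of 40, against 22.1% of all genes, and in number 3 in 2 of 11, 10 of 28 and 9 of 40, against 23.5%. Between numbers 3 and 2, Ddit4, a stress-induced inhibitor of mTORC1, was the only gene of the lists called (+0.67 ± 0.13, limma adjusted p = 0.0273).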

How the data were processed

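Total RNA (150 ng per array) was labelled with the Affymetrix WT Plus kit, per the labels' protocols. The authors deposited log2 values, 1 column per sample. The tools named in the submitters' processing notes are RMA, Transcriptome Analysis Console and Affymetrix Expression Console, with no version. The values ran from 3.08 to 18.39, with 231 to 251 probe sets per array above 16, so they may have been rescaled by a step not given in the sources used here. They were used as deposited.

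The table held 28846 probe sets, of which 6640 controls entered no test, and 19572 of the other 22206 had 1 gene symbol in the platform table (0 had several, 2634 none). All 19572 matched RefSeq genes by Entrez ID. The highest-mean probe set stood for a gene, which dropped 67 and left 19505 genes. Fits used lmFit and eBayes of limma 3.58.1 (R 4.3.3), with 4 group means over 12 arrays for treatments, and group plus replicate number for numbers. The fit was tested on simulated data. Members, lists and tests were chosen with earlier results of these data known. All members are named. Values per array go to members called in a comparison (up to 6 per group of genes) or else to the 2 per group with the smallest p, and up to 3 called genes per list and direction are named. Other values per array shown were chosen after they were seen, as were the counts of treated arrays against the carrier of the same number.

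The shared code was taken to pair arrays of a number across groups. The main fits of treatments left this pairing out. After group means were taken off, arrays with the same number had r from 0.097 to 0.647 (median 0.433, above 0.1 in 17 of 18 pairs), and in 12 of 12 arrays the best match was one of the same number. The number of arrays limits the precision. Alternatives were the replicate number as a block, an intensity trend with robust variance, centring, quantile normalization once more, genes above the negative controls, means over probe sets and leaving out arrays.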

Additional observations from a re-analysis of the deposited data

How the results depend on the processing

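With the replicate number as a block, limma called 1 gene, no member, in cultures with MIF against cultures without it, in place of 0. In the other contrasts between treatments the block called 0 genes, with 1606, 1254 and 817 at an unadjusted p under 0.05 for both proteins, MIF and sCD74 against carrier. Of 31 members, 3, 1 and 2 were under that limit, in the same order. The smallest adjusted p of a member by limma was then 0.575 with both proteins and 0.769 with MIF. The block changed no other call. With trend and robust variance added to the block, limma called 6 genes with both proteins and 1 with MIF against carrier, 2 with both proteins against sCD74 and 3 with MIF against without, and 0 members. At an unadjusted p under 0.05 this fit held 7 of 31 members with both proteins, 3 with MIF and 2 with sCD74 against carrier. They stood beside 1802, 1314 and 843 genes in all. Trend and robust variance alone called 11 members in number 1 against 2 and 3, adding Chac1, Creld2, Ddit3, Dnajb9 and Hspa5, beside 3786 genes (19.4%). Testing only genes above the negative controls called 9 members, adding Creld2, Ddit3 and Dnajb9, beside 3628 of 11290 genes (32.1%). In number 3 against 2, trend and robust variance called 734 genes and 1 member, Pdia6 (+0.22, adjusted p = 0.0494), and testing only genes above the negative controls called 540 genes. Quantile normalization once more lost Atf3 in number 1 (-0.29, adjusted p = 0.0961) and gained Trib3, leaving 6 members. The median of the endoplasmic reticulum genes with sCD74 against carrier was +0.04 with centring (0.0413) and 0.0076 with quantile normalization. In number 1, quantile normalization took the endoplasmic reticulum genes with all 3 treated arrays above carrier to 4 of 14 (28.6%, median 0.0466) and the ATF4-driven genes to 13 of 17, against 29.4% of all genes. The cause of these changes was not tested.

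Leaving out arrays gave ranges of 0.0050 to 0.0798 for the endoplasmic reticulum median with sCD74 against carrier, -0.0792 to 0.0312 with both proteins against MIF, -0.0362 to 0.0586 with both proteins against sCD74 and -0.1016 to 0.0279 in the interaction, and of -0.1759 to 0.0907 for the ATF4-driven median in the interaction. Against carrier the ATF4-driven median ran from 0.0207 to 0.3311 with both proteins, -0.0516 to 0.1621 with MIF and 0.0374 to 0.2539 with sCD74, and in number 1 against 2 and 3 from 0.0793 to 0.3698. The endoplasmic reticulum median ran from 0.0235 to 0.1103 with both proteins and 0.0207 to 0.1376 with MIF against carrier. Without all arrays of number 1, 2 or 3, the endoplasmic reticulum median with sCD74 against carrier was 0.0451, 0.0423 and 0.0489. For cultures with MIF against without, 0 to 1 genes were called, 1 without MIF replicate 1. In number 1 against 2 and 3, 2079 to 3063 genes and 3 to 8 members were called, with 2079 genes without sCD74 replicate 1. In number 3 against 2, 59 to 227 genes were called (59 without sCD74 replicate 2, 65 without carrier replicate 2, 68 without carrier replicate 3, 69 without sCD74 replicate 3, 97 and 111 without replicates 3 and 2 of sCD74 with MIF), and the endoplasmic reticulum median was 0.0612 to 0.1555. The sign turned for Edem1 in cultures with sCD74 against without (-0.0125 to 0.0718, below 0 without number 2) and for Shmt2 with both proteins against sCD74 (-0.0133 to 0.4479, below 0 without replicate 1 of sCD74 with MIF), neither of which had passed the test. In all, 810 of the values that answer a comparison stayed within their bounds and 38 did not. The bounds were wide, since the ATF4-driven median with MIF against carrier stayed within them from -0.0516 to 0.1621. The tally is therefore no measure of how firm the results are. Signal near background limits Chac1, Sesn2 and Ppp1r15a.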
